A study of Mus musculus with 2 samples.

Results

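Transcripts of the mouse mitochondrial genome were followed together with 4 nuclear pseudogenes that carry copies of mitochondrial sequence, Gm29216, Gm28661, Gm10925 and Gm10222. The members were every Ensembl gene of both deposited gene tables with a symbol starting in mt-, plus these 4 genes, which gave 41 of 43346 genes. Of these, 13 encode proteins, 2 encode ribosomal RNAs, 22 encode transfer RNAs and 4 are annotated as pseudogenes. The pseudogenes were chosen for their high values in these same tables, so their levels are a description and carry no test. The tissue was the gonadal fat pad, white fat lying against the reproductive organs, of C57BL/6J mice aged 8 weeks, pooled from both sexes. There were 2 libraries of 1 group, called biological replicates 1 and 2 by their labels, with no mutant allele, agent or second condition. Both carry the same donor identifier and how many mice stand behind each is not stated, so the spread between them may be in part technical. RNA over 200 nt was depleted of ribosomal RNA, selected for poly-A tails and read strand-specifically as 76 nt pairs. Gene fragments, meaning estimated read pairs on Ensembl genes, summed to 47106979 in replicate 1 and 54129473 in replicate 2.

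Mitochondrial DNA is transcribed as long RNAs from each strand, and transfer RNAs between the other genes mark where these are cut into single messages. Most of the messages receive short poly-A tails, which lets poly-A selection capture them, and in several genes that tail completes the stop codon. The proteins are membrane subunits of respiratory complexes I, III, IV and V, and all other subunits are encoded in the nucleus. Pieces of mitochondrial DNA have also been inserted into nuclear chromosomes, where they are annotated as pseudogenes. A short read from such a piece can match both places.

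The pseudogenes lay on the minus strand of chromosome 1, in a block of 4663 nt at chr1:24611535-24616197 (mm10). That block held 7 annotated copies in the gene order of the mitochondrial genome. Gm29216 lies at chr1:24615706-24616197, Gm28661 at chr1:24614885-24615565, Gm10925 at chr1:24613974-24614651 and Gm10222 at chr1:24612407-24612700. Their partners are on the plus strand, mt-Co1 at chrM:5328-6872, mt-Co2 at chrM:7013-7696, mt-Atp6 at chrM:7927-8607 and mt-Nd4l at chrM:9877-10173. The sequences that follow are from GENCODE M21 transcripts on mm10, 5′ to 3′ along the transcript, and are shown because they set how far reads can be told apart. Gm10222 and mt-Nd4l are given whole, then the last bases of Gm28661 and Gm10925 beside their partners, with capitals for mitochondrial bases past the end of the pseudogene. The last pair is the first 40 nt of Gm29216 and bases 1054 to 1093 of mt-Co1, with capitals for the bases before the match begins.
Gm10222: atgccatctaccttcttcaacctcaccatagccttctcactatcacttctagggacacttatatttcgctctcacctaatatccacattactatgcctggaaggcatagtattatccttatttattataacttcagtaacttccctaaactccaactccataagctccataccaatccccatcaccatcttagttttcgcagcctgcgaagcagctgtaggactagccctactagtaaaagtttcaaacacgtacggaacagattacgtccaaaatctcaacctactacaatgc
mt-Nd4l: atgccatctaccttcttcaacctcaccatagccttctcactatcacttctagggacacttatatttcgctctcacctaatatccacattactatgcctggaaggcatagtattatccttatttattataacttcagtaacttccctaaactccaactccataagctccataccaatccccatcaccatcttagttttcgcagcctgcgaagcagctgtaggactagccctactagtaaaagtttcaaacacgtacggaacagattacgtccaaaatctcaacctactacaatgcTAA
Gm28661: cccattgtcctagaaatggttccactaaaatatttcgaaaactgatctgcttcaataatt
mt-Co2: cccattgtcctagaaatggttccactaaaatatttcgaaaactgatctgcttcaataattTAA
Gm10925: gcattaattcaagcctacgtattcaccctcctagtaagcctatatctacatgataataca
mt-Atp6: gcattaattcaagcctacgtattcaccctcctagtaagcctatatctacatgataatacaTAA
Gm29216: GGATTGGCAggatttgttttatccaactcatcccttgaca
mt-Co1: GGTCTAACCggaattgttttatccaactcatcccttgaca

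Gm28661, Gm10925 and Gm10222 were identical to their partners over their whole annotated length of 681, 678 and 294 nt, without a mismatch or gap. Each partner was longer by 3 nt at its end, the capital TAA shown above, which is the stop codon. Gm29216 is annotated at 492 nt, of which 483 nt matched bases 1063 to 1545 of mt-Co1 with 1 mismatch. That mismatch was A1066T, with mt-Co1 given first and positions counted from 1 at the 5′ end of mt-Co1. Cut into windows of 1 read length, 76 nt, all 606 windows of Gm28661, all 603 of Gm10925 and all 219 of Gm10222 stood unchanged in the partner, as did 404 of 417 windows of Gm29216. In the other direction only 3 windows of mt-Co2, 3 of mt-Atp6 and 3 of mt-Nd4l were missing from the pseudogene, whereas 1066 of 1470 windows of mt-Co1 were. Gm29216 and mt-Co1 were thus the member pair with the most sequence to tell them apart.

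The mt- genes held 2.46% of gene fragments in replicate 1 and 3.76% in replicate 2, 3.11% ± 0.92 (SD, n = 2). The 4 pseudogenes held 0.513% in replicate 1 and 0.453% in replicate 2, 0.483% ± 0.042 (SD, n = 2). Together the 41 members held 2.98% in replicate 1 and 4.22% in replicate 2, so that replicate 2 was 1.42-fold above replicate 1. The mt- genes were higher in replicate 2 (log2 ratio of replicate 1 over replicate 2 of -0.61) and the pseudogenes slightly higher in replicate 1 (0.18). With posterior means, the second estimate of fragments in the deposited tables, the pseudogene ratio was -0.04. Pseudogenes made up 17.2% of member fragments in replicate 1 and 10.7% in replicate 2. The 95% Wilson interval of the mt- share was 2.460 to 2.469% in replicate 1, so counting error was far below the gap between libraries. Wilson intervals and floors cover counting error only. In bulk tissue, fewer cells of a type and less RNA per cell cannot be told apart.

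**Figure D1:**
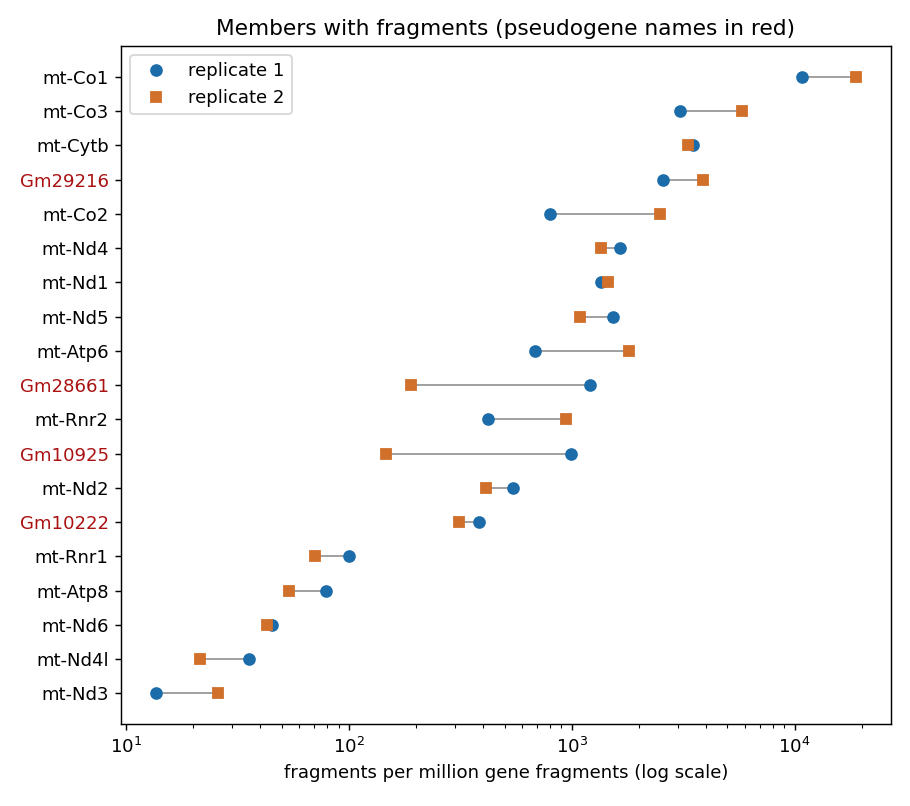
Fragments per 1000000 gene fragments of the 19 members with fragments, on a log axis, with circles for replicate 1 and squares for replicate 2. Lines join the libraries of 1 gene. The widest gaps are those of Gm28661 and Gm10925, high in replicate 1, and of mt-Co2 and mt-Atp6, high in replicate 2.

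The pseudogene pairs came next, ordered by the role of the partner. For complex IV, which passes electrons to oxygen, Gm29216 had 120376 fragments in replicate 1 and 210260 in replicate 2. Its partner mt-Co1, which encodes the catalytic subunit, had 509173 in replicate 1 and 1015816 in replicate 2. The pseudogene took 19.1% and 17.1% of the pair, so the split was close in both libraries, and both genes were higher in replicate 2. The authors' posterior SD, the spread of the estimate given the reads, amounted to 0.050 and 0.036 percentage points of the pair. Their log2 ratios were -0.60 for Gm29216, -0.80 for mt-Co1 and -0.76 for the sum.

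Gm28661 is the copy of mt-Co2, the complex IV subunit that receives electrons from cytochrome c. It had 56773 fragments in replicate 1 and 10307 in replicate 2. Its partner mt-Co2 went the other way, with 37836 fragments in replicate 1 and 134358 in replicate 2. The pseudogene took 60.01% of the pair in replicate 1 and 7.12% in replicate 2. Gm28661 was 6.33-fold higher in replicate 1 and mt-Co2 was 3.09-fold higher in replicate 2, whereas their sum, 94609 fragments in replicate 1 and 144664 in replicate 2, had a log2 ratio of -0.41. With posterior means the pseudogene took 48.5% of the pair in replicate 1, with a posterior SD of 15.6 percentage points, and 14.3% in replicate 2, with 6.2 points. The same mean for Gm28661 was 19.2% below the expected count in replicate 1 (a change of -19.2%) and 100.1% above it in replicate 2.

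Gm10925 and mt-Atp6, the proton channel subunit of ATP synthase (complex V), behaved alike. Gm10925 had 46647 fragments in replicate 1 and 7925 in replicate 2, while mt-Atp6 had 32347 in replicate 1 and 97981 in replicate 2. The pseudogene took 59.1% of the pair in replicate 1 and 7.48% in replicate 2, and posterior means gave 47.3% with an SD of 17.0 points and 12.4% with an SD of 5.18 points. Gm10925 was 6.76-fold higher in replicate 1 and mt-Atp6 was 2.64-fold higher in replicate 2, against a log2 ratio of -0.22 for the sum. The log2 ratios by posterior means were 1.35 for Gm28661 and 1.71 for Gm10925, each above 1, and -1.15 for mt-Co2 and -0.95 for mt-Atp6.

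Gm10222 is the copy of mt-Nd4l, a small membrane subunit of complex I, the entry point for electrons from NADH. It had 18054 fragments in replicate 1 and 16879 in replicate 2, and mt-Nd4l had 1680 in replicate 1 and 1164 in replicate 2. Here the nuclear copy took most of the pair in both libraries, 91.5% and 93.6%, with a posterior SD of 1.24 and 1.05 points. Per effective length, the number of start positions a fragment can take in the transcript, Gm10222 stood at 6233 TPM in replicate 1 and 5139 TPM in replicate 2. On the same TPM scale mt-Nd4l was at 558.5 in replicate 1 and 339.9 in replicate 2, making the pseudogene 11.2-fold and 15.1-fold higher. Both effective lengths were short, between 70.72 and 80.68 nt.

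**Figure D2:**
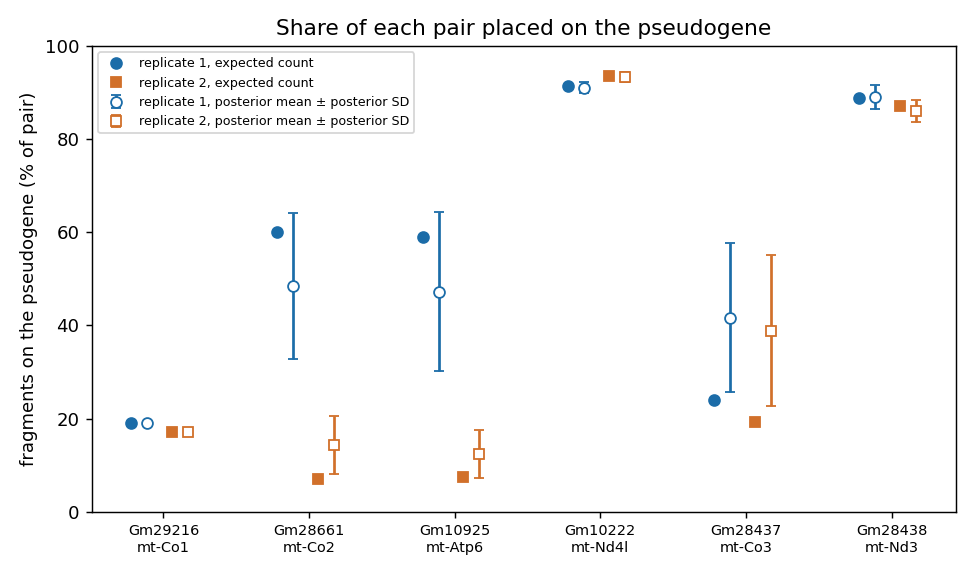
Percent of each pair's fragments that stood on the nuclear copy, by expected count and by posterior mean with its posterior SD, for replicate 1 and replicate 2. The Gm28661 and Gm10925 pairs differ between libraries (60.01% and 7.12%, 59.1% and 7.48%), and their error bars are wide. The pair of Gm28439 and mt-Nd4 is not drawn.

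Within every member pair the posterior SDs of both genes were equal to within 0.09 fragments. The pair sums by posterior mean and by expected count differed by at most 0.1 fragment. The total of a pair was thus the same in both estimates, and the spread lay in how it was split. A posterior SD above 10% of the posterior mean in both libraries was found in 1.33% of 16920 genes with a mean of 20 or more fragments, and in 5 of the 19 members among these. The 5 were Gm28661, Gm10925, mt-Co3, mt-Nd3 and mt-Nd4l, each of them a copy in the block or the partner of one. For mt-Co2 it was 30.2% in replicate 1 and 7.23% in replicate 2, and for mt-Atp6 32.2% and 5.91%. Members without a copy in the block had a posterior SD of at most 1.06 fragments. The authors' interval around TPM, whose level is not stated, ran for Gm28661 from 522.3 to 3329 in replicate 1 and from 194.2 to 1500 in replicate 2. For Gm29216 it ran from 11501 to 11679 in replicate 1 and from 16602 to 16809 in replicate 2. The main TPM of Gm29216, 11716 in replicate 1 and 16858 in replicate 2, lay just above both intervals. The same held for mt-Co1 and mt-Cytb but not for mt-Rnr1. Whether the intervals bound this TPM or its posterior mean is not given in the sources used here.

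The block held 3 more copies, which were added after their values were seen. Gm28437, identical to mt-Co3 over 783 nt, had 45347 fragments in replicate 1 and 74820 in replicate 2, or 23.9% and 19.3% of its pair. mt-Co3 encodes a core subunit of complex IV and had 144466 fragments in replicate 1 and 313731 in replicate 2. Gm28438 matched mt-Nd3, a complex I subunit, with 1 mismatch in 345 nt, and took 88.9% and 87.1% of that pair. Gm28439 was identical to mt-Nd4 over 876 nt, yet it had 1.90 of 77363 pair fragments in replicate 1 and 1.68 of 72915 in replicate 2. Of the mt-Nd4 windows, 502 of 1303 were missing from Gm28439. The 5 copies without a mismatch thus ranged in replicate 1 from 0.00246% of their pair for Gm28439 to 91.5% for Gm10222. Sequence identity alone did not fix the split, and why it differed was not tested. Transcription of the block itself was not measured apart from the mitochondrial genes.

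**Figure D3:**
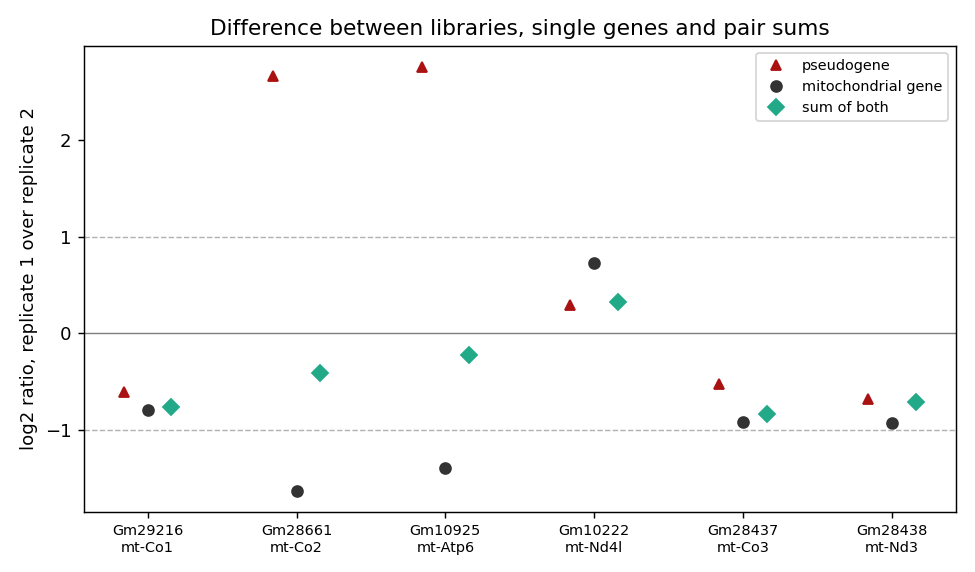
Log2 ratio of replicate 1 over replicate 2 in share of gene fragments for each nuclear copy (triangles), its mitochondrial partner (circles) and their sum (diamonds), with dashed lines at 2-fold. Gm28661 and Gm10925 stand at 2.66 and 2.76 and their partners at -1.63 and -1.40, while every sum lies between the lines. Gm28439 and mt-Nd4 are not drawn.

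The libraries were called over 2-fold apart for a gene that averaged at least 20 fragments and whose share of gene fragments differed by a factor above 2. This held for 6.40% of 16920 genes and for 5 of the 19 members with such a mean. Gm28661 and Gm10925 were higher in replicate 1, where 3.58% of all genes were over 2-fold higher, and mt-Co2, mt-Atp6 and mt-Rnr2 were higher in replicate 2, where 2.83% of all genes were. By posterior means the count was again 5, where 6.38% of all genes were called, but mt-Atp6 fell short of 2-fold and mt-Nd3 passed it. The pseudogenes were chosen on these tables, so these counts describe the members and support nothing about them. When each copy was added to its mitochondrial gene, 1 of 15 genes remained over 2-fold apart, against 3 of 15 taken alone. That gene was mt-Rnr2, the large ribosomal RNA, with 19815 fragments in replicate 1 and 51232 in replicate 2 and a log2 ratio of -1.17. The small ribosomal RNA mt-Rnr1 differed the other way, with 4715 fragments in replicate 1 and 3824 in replicate 2. The median log2 ratio was 0.07 over the members and 0.04 over all genes, whose SD was 0.60.

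Levels were then compared between genes on 1 scale, fragments per 1000000 gene fragments and per kb of annotated length, with copies added. mt-Co1 was highest at 8650 in replicate 1 and 14661 in replicate 2, 11655 ± 4250 (SD, n = 2). mt-Co3 followed at 5140 in replicate 1 and 9156 in replicate 2, and mt-Co2 at 2936 in replicate 1 and 3907 in replicate 2. All 3 complex IV genes were higher in replicate 2. mt-Cytb, the mitochondrially encoded subunit of complex III, had 3061 in replicate 1 and 2907 in replicate 2, so the libraries differed over whether it or mt-Co2 came in the third place. mt-Atp6 had 2462 in replicate 1 and 2873 in replicate 2.

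On this scale of annotated length the complex I genes came lower and spread widely. mt-Nd1 had 1421 in replicate 1 and 1515 in replicate 2, mt-Nd4l with its copy 1410 and 1122, and mt-Nd4 1192 and 978. mt-Nd5 had 839.7 in replicate 1 and 600.4 in replicate 2, mt-Nd2 had 526.5 and 398.2, and mt-Nd3 with its copy had 355.1 and 580.5. Lowest of the complex I genes was mt-Nd6, the only protein gene on the minus strand, at 87.1 in replicate 1 and 83.2 in replicate 2. Its 2130 and 2337 fragments were all that the 9 minus-strand mt- genes held. All the others of that strand are transfer RNA genes with an effective length of 0, so their lack of fragments is no measure of them. mt-Atp8, which overlaps mt-Atp6 by 43 nt, had 389.3 in replicate 1 and 264.8 in replicate 2. Of the ribosomal RNAs, mt-Rnr2 was at 265.9 in replicate 1 and 598.3 in replicate 2, and mt-Rnr1 at 104.8 and 74.0. These came from RNA that had been depleted of ribosomal RNA. The places of short genes depended on the divisor, and mt-Nd4l and mt-Atp8 had effective lengths below 100 nt. By TPM, Gm10222, the copy of mt-Nd4l, was at 6233 in replicate 1 and 5139 in replicate 2. That was above mt-Cytb, at 4769 TPM in replicate 1 and 4211 TPM in replicate 2.

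Per annotated length and with copies added, 7 of 15 genes held the same place in both libraries, against 3 of 15 for the mitochondrial genes alone. Of the 14 neighbouring pairs in the summed order, 7 had overlapping ranges over the libraries. Such overlap does not settle the order within a library. mt-Co2 and mt-Cytb overlapped and changed order, whereas mt-Co1 and mt-Co3 overlapped and mt-Co1 was higher in both libraries. Adding the copy raised mt-Nd4l greatly in both libraries, since alone it was at 120.1 in replicate 1 and 72.4 in replicate 2. mt-Co2 alone was at 1174 in replicate 1 and 3629 in replicate 2, so its copy changed the level greatly in replicate 1 and little in replicate 2. By summed fragments, complex IV took 1.94% of gene fragments in replicate 1 and 3.25% in replicate 2, a log2 ratio of -0.74. Complex I took 0.567% in replicate 1 and 0.488% in replicate 2, complex III 0.350% and 0.333%, and complex V 0.176% and 0.201%. The ribosomal RNAs took 0.0521% in replicate 1 and 0.102% in replicate 2. The higher mitochondrial share in replicate 2 thus lay mostly in complex IV, while complex I was higher in replicate 1.

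**Figure D4:**
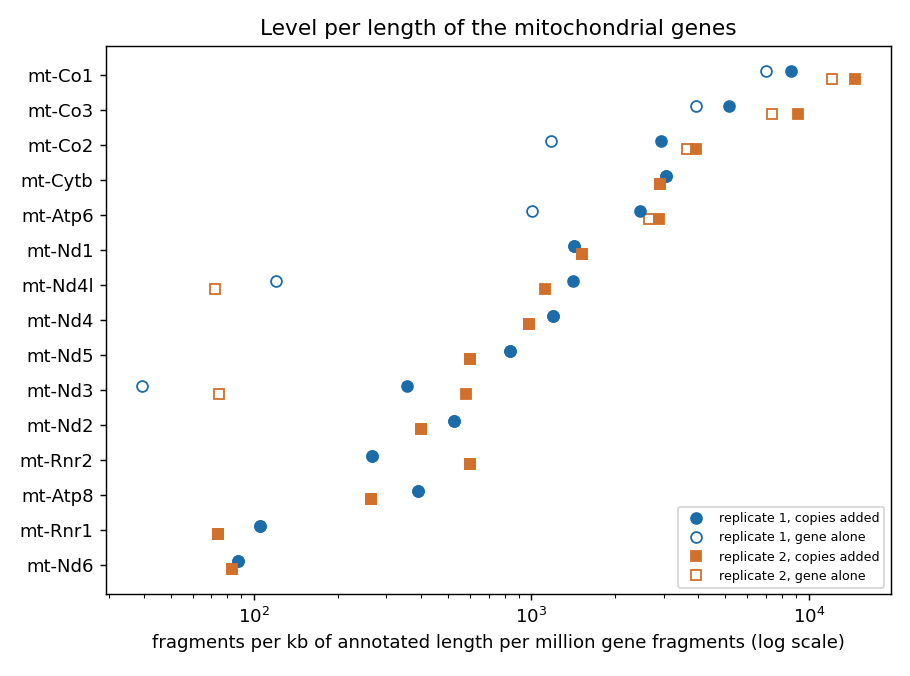
Fragments per 1000000 gene fragments and per kb of annotated length, log axis, for the 13 protein genes and 2 ribosomal RNA genes with the copies of the chromosome 1 block added, and for each mitochondrial gene alone, in replicate 1 and replicate 2. mt-Nd4l and mt-Nd3 move most in both libraries when the copy is added, whereas mt-Co2 and mt-Atp6 move far more in replicate 1 than in replicate 2.

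In the deposited TPM, which divides by effective length, Gm29216 ranked first of the 16 members with an effective length of 100 nt or more, at 14287 ± 3636 TPM (SD, n = 2). mt-Co1 came second at 10279 TPM in replicate 1 and 16551 TPM in replicate 2, and the order of these genes turned round when annotated length was the divisor. mt-Atp8 was left out of that ranking because its effective length was 2.37 nt in replicate 1 and 1.14 nt in replicate 2, against a length of 204 nt. Its TPM of 42332 in replicate 1 and 55187 in replicate 2 rested on that divisor, as its 3741 and 2924 fragments were fewer than those of 15 other members in replicate 1. The 22 transfer RNA genes, 59 to 75 nt long, had an effective length of 0 and 0 fragments in both libraries. Among all genes, 31 of 32276 with an effective length of 0 in both libraries held any fragment, so a 0 here is no measure of transfer RNA. The floor of 3 fragments came, in fragments per 1000000 gene fragments, to 0.0637 in replicate 1 and 0.0554 in replicate 2.

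Copies outside the block that could be measured held few fragments. Of 56 annotated genes whose transcript matched a mitochondrial gene in the same direction over at least 76 nt, 34 were in the deposited tables. The 7 copies of the block, at 99% identity or more, held 292375 fragments in replicate 1 and 329722 in replicate 2. The other 27 held 74.6 in replicate 1 and 59.3 in replicate 2, and 25 of them had 0 in both libraries. Of those 25, 4 had an effective length of 0 and so could not be measured, which leaves 21. The exceptions were Gm13341, 95.9% identical to mt-Co2, with 55.3 fragments in replicate 1 and 24.3 in replicate 2, and Gm13340, 97.6% identical to mt-Co1, with 19.3 and 35.1. Both lie on chromosome 2.

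**Figure D5:**
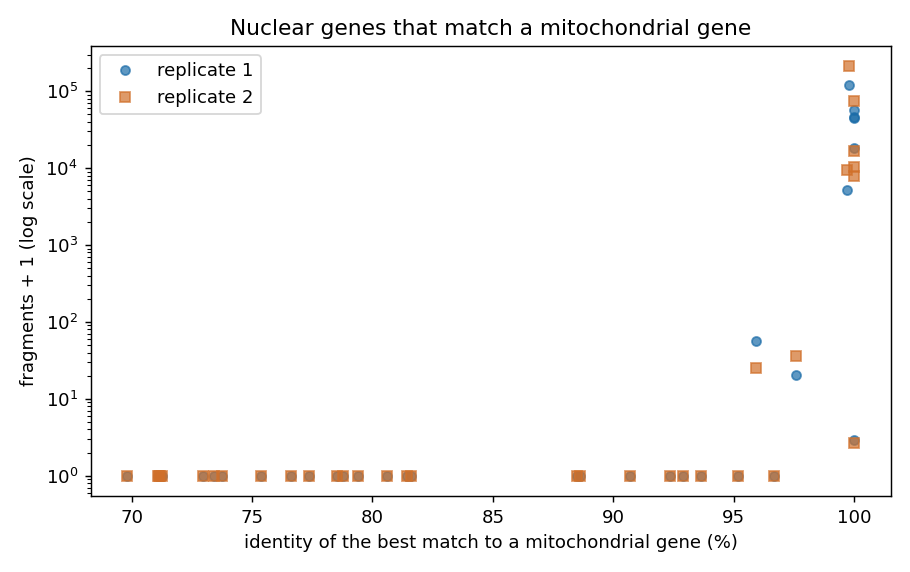
Fragments on annotated nuclear copies against their percent identity with the matching mitochondrial gene, for replicate 1 and replicate 2. Every copy above 100 fragments stands at 99% or more, and 25 of the 27 copies below that are at 0.

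A second view came from the authors' contigs, stretches of continuous coverage on the older build mm9, made over both libraries together. There were 11 contigs on the mitochondrial chromosome among 880859, and 9 had an irreproducible discovery rate of 0.1 or less. High signal lay at chrM:1-999 with 69.2 RPKM, chrM:1094-6938 with 2090 RPKM, chrM:10562-11602 with 824 RPKM and chrM:11690-16299 with 883 RPKM. The strongest of these ranked 8th of all contigs. Between them, from 7023 to 10012, lay 7 contigs with 0.099 to 0.688 RPKM. Of these 7, 5 had an irreproducible discovery rate of 0.1 or less, as did all 4 high contigs. The contig at 0.099 RPKM was not among the 5. The high contigs were all on the plus strand, and of the low ones 6 were on the plus strand and 1 on the minus strand. The lowest high contig exceeded the highest low contig 101-fold. Weighted by length, the high contigs averaged 1378 RPKM and the low ones 0.465 RPKM, against a median of 0.156 RPKM over all contigs. Whether reads that match several places were kept for the contigs is not given in the sources used here, and mm9 positions were not set against mm10 genes.

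Nuclear genes of the same complexes, and of complex II, were measured beside the members. Of 94 genes taken by name pattern, which includes some assembly factors, 91 reached 1 TPM in both libraries, with a median of 123.4 TPM in replicate 1 and 127.9 TPM in replicate 2. Atp5b, the catalytic beta subunit of ATP synthase, was at 1815 TPM in replicate 1 and 2316 TPM in replicate 2. Uqcr11, a small complex III subunit, was at 2112 and 1511 TPM. Over 2-fold apart were 5 of the 92 with a mean of 20 or more fragments, 1 higher in replicate 1 and 4 higher in replicate 2, which is close to the 6.40% of all genes. The 13 mitochondrial protein genes had a median of 1868 TPM in replicate 1 and 2304 TPM in replicate 2. The nuclear genes summed to 1.06% of gene fragments in replicate 1 and 1.17% in replicate 2, a log2 ratio of -0.15, with -0.60 for the sum of the mitochondrial protein genes without copies, most of which lay in complex IV. By median log2 ratio the nuclear genes stood at -0.12 and the mt- genes at 0.07, so the summed and the median ratios did not give the same picture. Among 41 nuclear genes for mitochondrial transcription, RNA processing and translation, 40 reached 1 TPM in both libraries and 0 of 41 were over 2-fold apart, where 6.40% of all genes were. Among the highest by TPM was Mterf3, of the mitochondrial transcription termination factor family, at 141.6 in replicate 1 and 120.1 in replicate 2. It had only 503 and 767 fragments, so this place holds by TPM and not by fragments. Fastk, whose family acts on mitochondrial RNA, was at 120.5 TPM in replicate 1 and 139.5 TPM in replicate 2, from 5848 and 8227 fragments.

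Markers of the cell types that the fat pad can hold were also summed. All 10 adipocyte markers reached 1 TPM in both libraries and summed to 1.71% of gene fragments in replicate 1 and 2.07% in replicate 2. Epididymal markers, 10 of 10 above 1 TPM, summed to 2.20% in replicate 1 and 1.67% in replicate 2, and smooth muscle markers, 5 of 5, to 0.247% and 0.285%. Of 5 brown adipocyte markers 2 reached 1 TPM, Cox8b and Cidea, and the list summed to 0.00052% in replicate 1 and 0.00117% in replicate 2. Single markers did not all follow their list, as Cfd, the adipocyte marker of highest mean TPM, was at 6724 TPM in replicate 1 and 3717 TPM in replicate 2. The log2 ratios of the adipocyte, epididymal and smooth muscle sums were -0.28, 0.40 and -0.21. The part of these markers in the mitochondrial shares was not tested.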

How the data were processed

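Polyadenylated RNA of 2 libraries was analysed from the deposited gene and transcript tables (mm10, GENCODE M4, per the accompanying notes). For both aligner and quantifier, the name is not given in the sources used here. The authors deposited an expected count per row (an estimated number of fragments), its posterior mean and SD, TPM and FPKM over effective length, and the percent of each gene's TPM per transcript. Per the file headers and values, the junction table on mm9 holds a count of reads, and junctions and contigs have an irreproducible discovery rate, a fraction. The deposited contig table gives RPKM, and its browser score was not used.

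From these, shares of fragments were computed over 43346 Ensembl genes, leaving out spike-ins and unnamed rows, with pair sums and log2 ratios of replicate 1 over replicate 2. Symbols were matched by Ensembl ID for 42462 genes, and 884 had none. Nuclear copies were found with BLAST+ 2.17.0 (E-value 1e-10) in GENCODE M21 transcripts, with no whole-genome search. Matches in the opposite direction to the mitochondrial gene were left out. Expected counts were rounded to whole numbers for size factors from DESeq2 1.42.0 and TMM factors from edgeR 4.0.16, which served only as scalings. With 1 group of 2 libraries there is no comparison of groups, so no p-value is given. The 2-fold rule was tried on simulated counts of 16945 genes with counting error only, where it recovered 200 of 200 genes changed 4-fold and made 17 false calls. That trial held neither the spread between libraries nor the split within pairs, so it says nothing about the calls on members. Genes named are the members, their further copies and up to 3 highest genes of each list. Members and lists were chosen with earlier results of these data known.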

Additional observations from a re-analysis of the deposited data

How the results depend on the processing

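Of 106 alternative values that kept both libraries, 68 stayed within their yardstick and 38 moved further. Many of the 68 were all but fixed in advance, so their number is no measure of stability. These were transcript values summed per gene, windows of the identical copies Gm28661, Gm10925 and Gm10222, places by FPKM and pair sums by posterior mean. The yardstick was the SD between libraries for shares, the 95% counting error for log2 ratios, a factor of 1.5 for counts and the same place for ranks. Counting error is small here, so even small shifts of a log2 ratio pass it. The log2 ratio of replicate 1 over replicate 2 for mt- genes, -0.61, was -0.66 with TMM factors, -0.67 with DESeq2 size factors, -0.63 with members left out of the total, -0.48 with summed TPM and -0.56 with posterior means. For the 4 pseudogenes, 0.18, it was 0.13, 0.12, 0.16, 0.067 and -0.035 in the same order, so posterior means changed its sign. For both together, -0.50, it was -0.55, -0.56, -0.52, -0.36 and -0.49. TMM factors gave -0.65 for Gm29216, -0.84 for mt-Co1 and -0.81 for their sum, 2.62, -1.67 and -0.46 for Gm28661, mt-Co2 and their sum, and 2.71, -1.44 and -0.27 for Gm10925, mt-Atp6 and their sum. They gave 0.25 for Gm10222 and 0.28 for its sum with mt-Nd4l. Posterior means gave 1.35 for Gm28661, -1.15 for mt-Co2, 1.71 for Gm10925 and -0.95 for mt-Atp6. Over 2-fold apart were 5 of 19 members, where 6.40% of all genes were. With copies added this held for 1 of 15 genes, against 3 of 15 for the same genes alone. No share over all genes was computed for the summed form. Adding copies to genes or to the sums, and counting by posterior means (5 of 19, and 6.38% of all genes), were chosen after seeing the data. By annotated length Gm29216 took place 2 and mt-Co1 place 1, and with no minimum of effective length Gm29216, mt-Co1 and mt-Co3 took places 2, 3 and 4. The 18 mitochondrial junctions became 468 without a limit on the irreproducible discovery rate and 7 at 0.01. The percent of all genes over 2-fold apart was 19.5 at a mean of 1 fragment and 3.54 at 100, with 5 members each time.

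With 1 library at a time (20 values, not among the 106, since shares of 2 libraries lie within their SD of the mean by construction), mt- genes held 2.46 to 3.76% of gene fragments, pseudogenes 0.453 to 0.513% and both 2.98 to 4.22%. Pair shares ranged from 17.1 to 19.1% for Gm29216, 7.12 to 60.01% for Gm28661, 7.48 to 59.1% for Gm10925 and 91.5 to 93.6% for Gm10222. No paired analysis was possible because the series has 1 group. Depth is not the limit for these genes. The posterior SD limits the split within a pair, and having 2 libraries limits every difference between them.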

Other observations

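The authors' junction table on mm9 listed 468 junctions on the mitochondrial chromosome among 515046, although mitochondrial genes are not known to be spliced. They held 1331 reads, 0.00326% of all junction reads, and 320 of them had 1 read. The highest had 292 reads. An irreproducible discovery rate of 0.1 or less was found in 18 of them (3.85%), against 31.9% of all junctions, and these 18 held 682 reads. There were 450 on the plus strand and 18 on the minus strand. What these reads are was not tested.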
